A study of Mus musculus with 12 samples.

Results

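A set of 8 engulfment genes was followed through the first postnatal month in cells sorted from the mouse cerebellum. They are the receptors Megf10, Mertk, Axl and Tyro3, the secreted bridging ligands Gas6, Pros1 and Mfge8, and the receptor adaptor Gulp1. They were chosen by name for their roles, with earlier results of these data known, and all 8 have a row among the 24421 entries of the gene table. The cells came from untreated Aldh1l1-GFP mice on the C57/BL6J background, of both sexes, and were sorted for green fluorescent protein (GFP) at postnatal day 1 (P1), P7, P14 or P28, with 3 RNA-seq libraries per time point and 12 in all. Every library therefore carries the same reporter transgene, in which the promoter of Aldh1l1, a folate enzyme of astrocytes, drives GFP, and age is the variable by which the labels set the groups apart. Sex, litter, sort day and sequencing batch of each library are not given in the sources used here, so whether they differed between the ages is not known. Whether the 3 libraries of a time point came from separate animals is not given in the sources used here, so p-values measure the spread between these samples, which may be technical.

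Dying cells and unwanted synapses expose the lipid phosphatidylserine on their outer surface. Mertk, Axl and Tyro3, the TAM receptor tyrosine kinases, do not touch this lipid themselves. They bind Gas6 and, mainly in the case of Mertk and Tyro3, protein S, the product of Pros1. These ligands hold the lipid and the receptor at opposite ends. Mfge8 is a further bridge, which ties phosphatidylserine to the integrin of the subunits αv and β5. Megf10 is a transmembrane relative of Draper, the engulfment receptor of fly glia, and Gulp1 is a cytoplasmic adaptor that binds the tails of engulfment receptors of this kind. Astrocytes are known to take up synapses through Megf10 and Mertk.

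Libraries held 6399499 to 14733985 reads on genes, and each of the 8 genes had between 106 and 7433 reads in a library. The values below are normalised read counts, in which the reads of a library were divided by a size factor. All of 10 astrocyte markers were read at every time point. This is no check of identity, since all 8 oligodendrocyte markers were read at every time point too. The summed normalised count of the astrocyte markers averaged 65387, 42225, 165330 and 374101 in the order of age. Aldh1l1 itself averaged 5008, 1470, 1879 and 2921. Markers of other cell types were also present. The summed count of 8 oligodendrocyte markers lay between 1518 and 2469 at P1 and between 344951 and 394191 at P14. Choroid plexus markers set libraries of the same age apart, with sums from 912 to 109483 at P14. Fewer cells of a type and less RNA per cell cannot be told apart in such bulk libraries.

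Of the 8 genes, 6 differed between the 4 time points by a limma F test with Benjamini-Hochberg adjustment, against 43.8% of the 15464 genes tested. Axl had the lowest adjusted p (1.46e-05), followed by Mfge8 (0.000119), Mertk (0.000284), Tyro3 (0.00285), Megf10 (0.00708) and Gas6 (0.00712). Gulp1 (0.139) and Pros1 (0.277) did not pass. The lowest mean lay at P7 for 6 of the 8 genes, among them Gulp1 and Pros1. For Gas6, also among them, the means at P7 and P1 lay close, at 786 and 829. The share of all genes with their lowest mean at P7 was not computed. Megf10, Mertk, Axl and Pros1 had their highest mean at P28, Tyro3 and Gas6 at P14, and Mfge8 and Gulp1 at P1.

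From P1 to P7, 3 of the 8 genes changed at an adjusted p under 0.05, namely Mertk, Axl and Mfge8, and all 3 fell. Among all genes 7.70% were called in this step, 3.47% higher and 4.24% lower. Tyro3 and Gulp1 were also lower in every P7 library than in any P1 library without passing the test, and 38.3% of all genes had such separate libraries in either direction. A looser rule, with p under 0.05 before adjustment and a change of over 0.75 on the log2 scale, called 5 of the 8, against 14.2% of all genes. The median log2 fold change was -0.86 over the 8 genes and 0.04 over all genes.

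From P7 to P14, 4 of the 8 rose, namely Mertk, Axl, Tyro3 and Gas6. Across all genes 20.9% were called, 10.8% higher and 10.0% lower. With Gulp1, 5 genes had higher values in all P14 than in all P7 libraries, against 46.1% of all genes separate in either direction. The looser rule called 4, against 26.2% of all genes. The medians were 0.89 for the 8 genes and -0.09 for all genes.

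From P14 to P28, Megf10, Axl and Mfge8 rose and Tyro3 fell, so that 4 of the 8 were called against 14.4% of all genes, of which 5.68% were higher and 8.76% lower. Libraries of the time points were separate for 6 of the 8 and for 26.1% of all genes. Without P14 replicate 3, the calls of Megf10 and Mfge8 were lost and 2 of the 8 remained called. The looser rule called 4 of the 8 and 24.1% of all genes. The median was 0.57 for the 8 genes and -0.12 for all genes.

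Over the whole span from P1 to P28, 4 of the 8 rose (Megf10, Mertk, Axl and Gas6) and Tyro3 fell, against 34.6% of all genes called, 14.6% higher and 20% lower. The libraries were separate for these 5 genes, and for 41.9% of all genes, and the looser rule called 5 of the 8 and 39.3% of all genes. This count fell to 2 without P1 replicate 1 and to 3 without P1 replicate 3 or without P28 replicate 2. It was also 2, with Axl higher and Tyro3 lower, when libraries were scaled by their read totals, a scaling that moved the median of all genes from -0.24 to -0.67.

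Time points further apart were compared to order the levels of each gene. P14 differed from P1 in Gas6, which was higher, and in Mfge8, which was lower, and 20.4% of all genes were called in this comparison, 10.4% higher and 9.99% lower. P28 was above P7 in 5 of the 8, namely Megf10, Mertk, Axl, Gas6 and Mfge8, by 0.93, 2.27, 2.47, 0.98 and 1.99 on the log2 scale, where 39.2% of all genes were called, 16.2% higher and 23.0% lower.

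**Figure D1:**
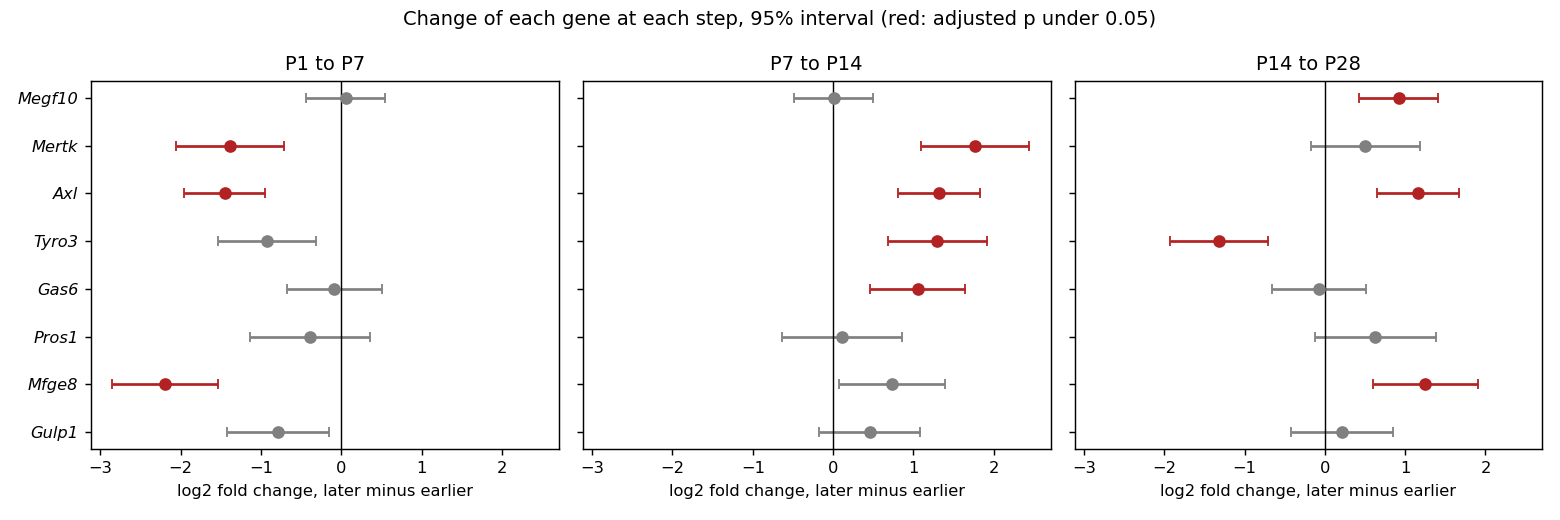
Log2 fold change (later minus earlier, x axis) of each of the 8 genes in the 3 steps between consecutive time points, from the limma fit on log2(value + 1), with 95% confidence intervals. Red points passed an adjusted p under 0.05 and grey ones did not: Mertk, Axl and Mfge8 lie below 0 from P1 to P7, and Tyro3 is the called gene below 0 from P14 to P28.

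Promoters of 4 genes are shown because Mertk, Axl and Mfge8 fell together from P1 to P7 while Tyro3, of the same receptor family as Mertk and Axl, had its own course. The windows are RefSeq sequence on GRCm38.p6, run from 250 bases before to 50 after the annotated start, and are printed 5′ to 3′ on the strand of the gene. Mertk is chr2:128698665-128698964 on the plus strand, Axl is chr7:25788684-25788983 on the minus strand, Mfge8 is chr7:79149011-79149310 on the minus strand, and Tyro3 is chr2:119799264-119799563 on the plus strand. The Tyro3 window lies inside the GENCODE span of the gene given below, since RefSeq places its start further downstream. Capitals mark GC boxes, the letters GGGCGG or, on the other strand, CCGCCC, which overlap in a run of them in the Tyro3 window.
Mertk: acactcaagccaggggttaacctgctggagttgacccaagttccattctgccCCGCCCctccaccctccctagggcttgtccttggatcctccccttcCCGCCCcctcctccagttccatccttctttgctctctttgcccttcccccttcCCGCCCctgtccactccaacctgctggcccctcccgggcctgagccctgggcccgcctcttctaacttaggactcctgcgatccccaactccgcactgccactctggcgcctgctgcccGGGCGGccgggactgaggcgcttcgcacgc
Axl: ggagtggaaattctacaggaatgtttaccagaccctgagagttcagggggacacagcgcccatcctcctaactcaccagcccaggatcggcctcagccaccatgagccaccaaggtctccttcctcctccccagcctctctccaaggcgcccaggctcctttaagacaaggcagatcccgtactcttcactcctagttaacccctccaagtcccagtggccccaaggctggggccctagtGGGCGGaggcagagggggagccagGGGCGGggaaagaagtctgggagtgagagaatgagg
Mfge8: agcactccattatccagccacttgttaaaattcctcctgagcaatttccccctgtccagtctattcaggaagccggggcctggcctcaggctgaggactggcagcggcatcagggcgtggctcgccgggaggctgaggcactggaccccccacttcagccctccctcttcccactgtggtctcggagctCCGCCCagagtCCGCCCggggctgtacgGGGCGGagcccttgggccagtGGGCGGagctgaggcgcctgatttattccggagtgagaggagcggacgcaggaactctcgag
Tyro3: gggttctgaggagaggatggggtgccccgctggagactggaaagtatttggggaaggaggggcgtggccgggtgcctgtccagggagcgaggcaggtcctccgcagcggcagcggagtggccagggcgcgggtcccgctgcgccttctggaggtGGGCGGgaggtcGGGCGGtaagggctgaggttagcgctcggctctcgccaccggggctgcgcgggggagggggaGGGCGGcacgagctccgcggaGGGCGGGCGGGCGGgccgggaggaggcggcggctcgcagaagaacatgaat

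The Tyro3 window held 6 GC boxes, the Mertk and Mfge8 windows 4 each and the Axl window 2, and 35.7% of the 32851 RefSeq windows of this length held at least 1. The GC content was 73.3% in Tyro3, 66.0% in Mertk, 64.3% in Mfge8 and 60.3% in Axl, where the median of all windows was 52.7%. Gas6, Pros1 and Gulp1 windows, which are not printed, held 4, 5 and 1 GC boxes. None of these 7 windows held AGGTCA or TGACCT, a nuclear receptor half-site found in 16.3% of all windows, TTGGC or GCCAA, an NFI half-site found in 46.7%, or TATAAA or TTTATA, the TATA box letters found in 13.6%. The motifs were chosen after the expression values were known, and a match describes letters, not a site in use.

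**Figure D2:**
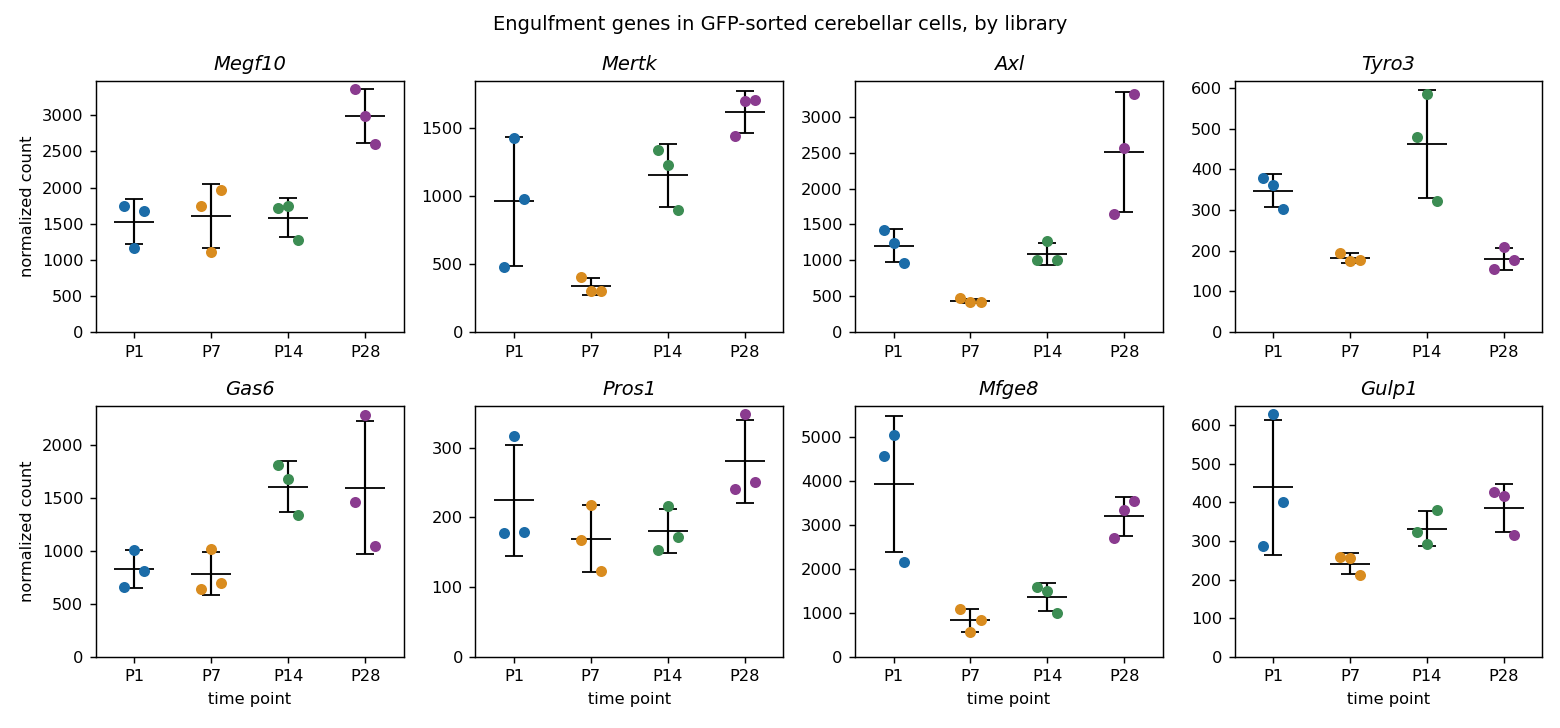
Normalised read count of the 8 genes in each of the 12 libraries, by time point, with a black bar at the mean of 3 libraries and whiskers of 1 SD. The P7 points of Mertk, Axl and Mfge8 sit below all of their P1 points, and those of Tyro3 at P28 sit near the level of P7.

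Megf10 was higher at P28 than at each younger time point, and the younger ones did not differ detectably. Its normalised counts were 1745, 1165 and 1679 at P1, 1742, 1112 and 1966 at P7, 1722, 1751 and 1278 at P14, and 3359.7, 2985 and 2609 at P28. The 3 younger groups overlap throughout, and every P28 library lies above all 9 younger ones. The means, in the order of age, were 1529.8 ± 317, 1607 ± 442, 1584 ± 265 and 2985 ± 376 (SD, n = 3). The rise from P14 to P28 was 0.92 ± 0.23 on the log2 scale (SE, limma adjusted p = 0.0170), a 1.89-fold rise. Without P14 replicate 3 it was 0.77 (adjusted p = 0.0768), and with scaling by read totals 0.68 (adjusted p = 0.0590). Neither earlier step passed the test, at 0.05 from P1 to P7 (95% interval -0.44 to 0.54) and 0.01 from P7 to P14 (-0.49 to 0.50). These intervals leave room for changes of either sign, and they are not limits of what 3 libraries a group could detect.

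Mertk (chr2:128698956-128802894, plus strand, GRCm38), the TAM receptor best known for clearing dead cells and retinal debris, was lowest at P7 and highest at P28. Its counts were 476, 1429.7 and 981 at P1, 408, 302 and 302 at P7, 1342, 1227 and 897 at P14, and 1441, 1704 and 1712 at P28. The P7 libraries are the lowest of all 12, P1 is the most scattered group, and P1 and P14 overlap. The means were 962 ± 477, 337 ± 61.0, 1155 ± 231 and 1619 ± 154. Mertk fell 2.62-fold from P1 to P7 (log2 fold change -1.39 ± 0.32 SE, limma adjusted p = 0.0144). This call was lost without P1 replicate 2 (-1.03, adjusted p = 0.0737), P1 replicate 3 (-1.30, 0.0504), P7 replicate 2 (-1.32, 0.0583) or P7 replicate 3 (-1.31, 0.0619). From P7 to P14 it rose 3.41-fold (1.77 ± 0.32, adjusted p = 0.00111), and this passed under each of 22 alternative fits, among which the looser call rule is not counted. The further difference to P28 was 0.50 (adjusted p = 0.311, interval -0.17 to 1.18). The rise from P1 to P28, of 0.88 (adjusted p = 0.0427), was past the threshold in 8 of the 22 alternatives, and without P1 replicate 1 it was 0.45 (adjusted p = 0.213).

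Axl (chr7:25757273-25788705, minus strand), a TAM receptor whose main ligand is Gas6, was likewise lowest at P7 and highest at P28. Its counts were 1417, 1235 and 969 at P1, 469.8, 421 and 415 at P7, 999.7, 1267 and 1005 at P14, and 1651, 2568 and 3323 at P28. P7 lies below and P28 above all other libraries, while P1 and P14 overlap. These are means of 1207 ± 226, 436 ± 29.8, 1091 ± 153 and 2514 ± 837. Axl fell 2.74-fold from P1 to P7 (log2 fold change -1.45 ± 0.24, limma adjusted p = 0.00178) and rose 2.49-fold from P7 to P14 (1.32 ± 0.24, adjusted p = 0.00121). It rose again from P14 to P28, by 1.16 ± 0.24 (adjusted p = 0.00656), and stood 2.02-fold above its P1 level at P28 (adjusted p = 0.00445). The first 2 steps and the whole span passed under all 22 alternatives. The last step was lost when only P14 and P28 were fitted (adjusted p = 0.0543).

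Tyro3 (chr2:119797733-119818104, plus strand), the TAM receptor of neurons and of myelinating glia, ran a different course, with its highest level at P14 and low levels at P7 and P28. Its counts were 378, 362 and 301 at P1, 195, 174 and 177 at P7, 479.7, 585 and 321 at P14, and 155, 209 and 177 at P28. P7 and P28 overlap each other and lie below every P1 and P14 library. The means were 347 ± 40.5, 182 ± 11.4, 462 ± 133 and 180.3 ± 27.1. The difference from P1 to P7 of -0.92 ± 0.29 had a limma adjusted p of 0.0676 and fell on either side of the threshold across alternatives (adjusted p from 0.00770 with DESeq2 to 0.226). It passed the threshold without P14 replicate 3 (adjusted p = 0.0486) and without P28 replicate 1, 2 or 3 (0.0485, 0.0457 and 0.0467). From P7 to P14 Tyro3 rose 2.46-fold (1.30 ± 0.29, adjusted p = 0.00474), under all 22 alternatives. From P14 to P28 it fell 2.50-fold (-1.32 ± 0.29, adjusted p = 0.00848), a call lost when only P14 and P28 were fitted (adjusted p = 0.0752). Its P28 level was below that of P1 (-0.95, adjusted p = 0.0198), but not past the threshold without P1 replicate 1 (-0.88, 0.0753) or P1 replicate 2 (-0.91, 0.0562). That call was also lost when only P1 and P28 were fitted (adjusted p = 0.0712). The summed count of 6 oligodendrocyte precursor markers was 7309 to 11489, 3750.1 to 4614, 7402 to 8509 and 2461 to 2988 over the 4 time points. The single markers did not all follow this sum: from P7 to P14, 3 of the 6 rose and 1 fell. Pdgfra, the leading marker of that list, had means of 3646, 1281, 720 and 353. Other lists ran differently from P1 to P7, where Tyro3 was lower: all 8 oligodendrocyte and 4 of 6 pan-neuronal markers rose. From P7 to P14, 8 oligodendrocyte and 3 pan-neuronal markers rose and 1 pan-neuronal marker fell. From P14 to P28, 7 and 4 of them fell. The part of oligodendrocyte precursors, oligodendrocytes or neurons in the Tyro3 values was not tested.

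The balance of the 3 TAM receptors can be read only per length, as normalised counts per kilobase of exon. Summed over the 3 receptors this level was 518 ± 101, 194 ± 21.8, 558 ± 88.8 and 902 ± 201 in the order of age. Tyro3 made up 11.0% ± 2.21, 15.2% ± 0.737, 13.2% ± 1.84 and 3.29% ± 0.568 of that sum (SD, n = 3). The P28 libraries, at 2.64% to 3.65%, lie below the other 9, which run from 9.21% to 15.8%. Axl held 47.4% ± 12.9, 44.8% ± 1.89, 39.2% ± 4.87 and 54.4% ± 6.53, and Mertk held 41.6% ± 15.1, 40.0% ± 2.60, 47.7% ± 4.50 and 42.3% ± 6.03. The wide SD of both at P1 comes with replicate 1, where Axl held 62.2% and Mertk 24.3%.

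**Figure D3:**
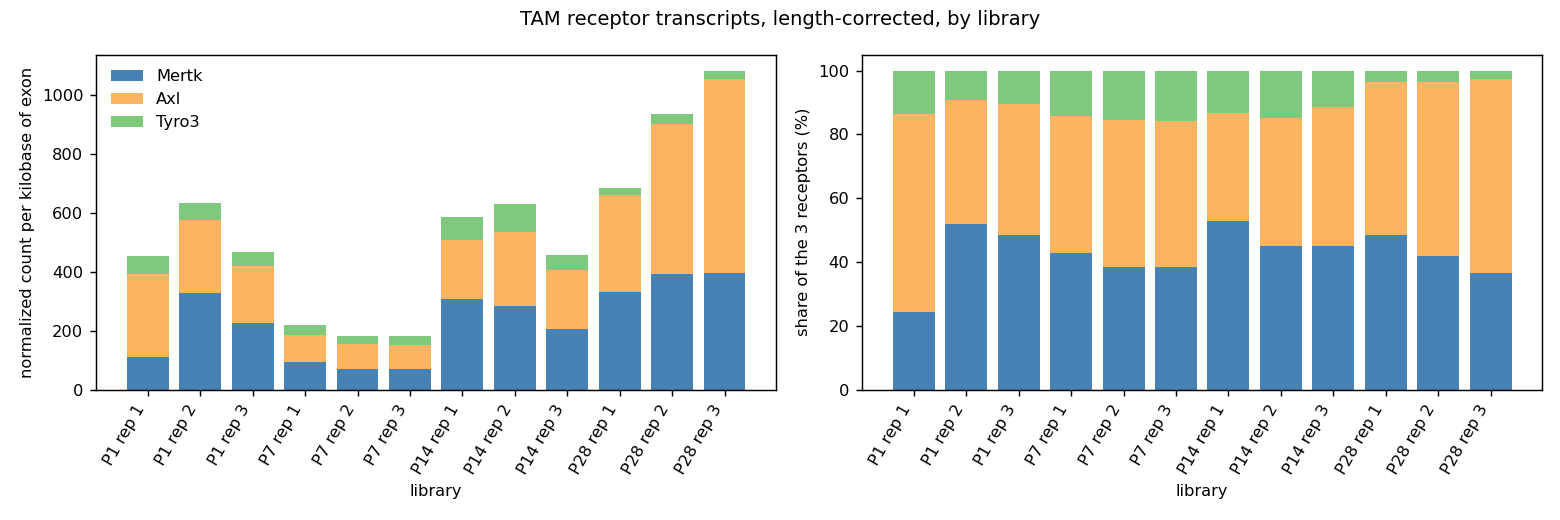
Stacked bars of Mertk, Axl and Tyro3 in each of the 12 libraries, on the left as normalised count per kilobase of exon and on the right as the share of the 3 receptors in percent. Tyro3 lies between 9.21% and 15.8% in the 9 libraries of P1, P7 and P14 and between 2.64% and 3.65% in those of P28.

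Ratios within a library do not depend on the scaling between libraries, and 3 of them were tested between the 6 libraries of P1 and P7 and the 6 of P14 and P28 by a two-sided exact permutation test. With 924 splits the smallest possible p was 0.00216. Each side pools libraries of different ages, and the test ignores this grouping. It therefore cannot tell a change at a single age from a change with age. The log2 ratio of Mertk to Axl differed by 0.16 (exact p = 0.636, the same after adjustment over the 3 ratios). The ratio of Mertk to Tyro3 was higher in the older libraries by 1.15 (exact p = 0.0476, adjusted 0.0714), with means of 1.34, 0.87, 1.34 and 3.17 over the time points, and without P14 replicate 2 the adjusted p was 0.0357. The 3 P28 ratios, from 3.02 to 3.27, all exceeded the highest of the other 9, 1.98.

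Gas6, the bridging ligand that binds all 3 TAM receptors, stood at a low level at P1 and P7 and at a higher one at P14 and P28. Its counts were 661, 1013 and 814 at P1, 644, 1019.5 and 694 at P7, 1809.9, 1682 and 1337 at P14, and 1461, 2289 and 1049 at P28. The P1 and P7 libraries overlap, as do those of P14 and P28, and every older library exceeds every younger one. The mean was 829 ± 177, then 786 ± 204, then 1609.6 ± 245 and last 1600.0 ± 631. Gas6 rose 2.07-fold from P7 to P14 (1.05 ± 0.27, limma adjusted p = 0.0134). That call was lost without P7 replicate 1 (0.92, adjusted p = 0.0655), P7 replicate 3 (0.98, 0.0570), P14 replicate 1 (0.96, 0.0568) or P14 replicate 2 (1.01, 0.0516), and with scaling by read totals (0.80, 0.0554). From P1 to P28 the rise was 0.90 (adjusted p = 0.0212), and not past the threshold without P1 replicate 1 (0.74, 0.0927), P1 replicate 3 (adjusted p = 0.0545) or P28 replicate 2 (0.60, 0.0855). This rise was also not past the threshold with scaling by read totals (0.46, 0.205) or when only P1 and P28 were fitted (adjusted p = 0.0660). The intervals of the first step (-0.67 to 0.50) and of the last (-0.66 to 0.52) leave room for changes of either sign. The gene lies at chr8:13465374-13494490 on the minus strand and shares exon bases with Tmem255b on the other strand, whose means were 20.6, 9.79, 27.5 and 9.29. As the use of strand in counting is not stated, reads of the pair cannot be told apart where they overlap.

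Pros1 (chr16:62854307-62929346, plus strand), which encodes protein S, a TAM ligand better known as an anticoagulant of plasma, passed no test in these comparisons. Its counts were 178, 317 and 179 at P1, 167, 219 and 122 at P7, 154, 216 and 172 at P14, and 241, 349 and 252 at P28. Only P28 lies apart from any group, above all P7 and all P14 libraries. The means were 225 ± 79.4, 169 ± 48.1, 180.3 ± 32.0 and 281 ± 59.6. The largest difference in the mean, from P7 to P28, was 0.74 with an interval of -0.01 to 1.49 (limma adjusted p = 0.107). Replicate 2 had the highest Pros1 in each of the 4 groups. At P1 and P7 these were also the libraries with the highest summed count of 8 endothelial markers (3797 and 11087) and of 9 mural and fibroblast markers (25468 and 20410.2), and with the highest Gas6, while at P28 replicate 2 had the lowest mural and fibroblast sum of its group (5218). The part of vascular cells in the Pros1 and Gas6 values was not tested.

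The log2 ratio of Gas6 to Pros1 averaged 1.91, 2.22, 3.15 and 2.45 over the time points. It was 0.74 higher in the 6 older than in the 6 younger libraries (exact permutation p = 0.0130, adjusted over 3 ratios 0.0390). As each side pools different ages, this is no test of a steady change with age. Between P1 and P28 alone the difference was 0.54 (exact permutation, adjusted p = 0.3), where 3 against 3 libraries cannot pass. All 3 P14 libraries lie above the rest, at 2.95 to 3.55, while P28 (2.06 to 2.71) overlaps P7 (1.94 to 2.49). Leaving out P1 replicate 1, 2 or 3, P7 replicate 1, P14 replicate 1 or 3, or P28 replicate 2 gave differences between 0.59 and 0.76 whose adjusted p lay between 0.0519 and 0.0714.

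Mfge8 (chr7:79133768-79149060, minus strand), the bridge to the integrin of αv and β5, had the widest range of the 3 ligands and was highest at P1. Its counts were 4573, 5043 and 2158 at P1, 1085, 575 and 827 at P7, 1585, 1502 and 996 at P14, and 2705, 3339 and 3554 at P28. P1 and P28 overlap, P7 and P14 overlap, and the former pair lies above the latter in every library. The means were 3925 ± 1548, 829 ± 255, 1361 ± 319 and 3199 ± 441. Mfge8 fell 4.58-fold from P1 to P7 (-2.20 ± 0.31, limma adjusted p = 0.000530), under all 22 alternatives. The difference from P7 to P14 was 0.73 (adjusted p = 0.111), and without P1 replicate 3 its adjusted p was 0.0465. From P14 to P28 it rose 2.38-fold (1.25 ± 0.31, adjusted p = 0.0157), a call lost without P14 replicate 3 (1.04, 0.0758). P28 and P1 differed by -0.21 (adjusted p = 0.625, interval -0.87 to 0.45).

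Per kilobase of exon, Mfge8 was the most abundant bridging ligand at P1, at 836 against 325 for Gas6 and 55.0 for Pros1. At P7 Gas6 stood at 308 and Mfge8 at 177, and at P14 at 632 and 290.0, so that the mean of Gas6 was the higher at both ages. At P28 Gas6 stood at 628 and Mfge8 at 682. Those P28 levels do not differ beyond their spread. Megf10 had a level per kilobase of 198, 208, 205 and 387, between those of Tyro3 (56.0, 29.4, 74.6 and 29.1) and of Axl at P1, P14 and P28 (239.8, 217 and 499), while at P7 Axl (86.5) and Mertk (77.8) were below it.

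Gulp1 (chr1:44551511-44796838, plus strand), the adaptor, had a 1.82-fold range between its highest and lowest mean and passed no test. Its counts were 286, 629 and 402 at P1, 257, 257 and 211 at P7, 324, 292 and 380.1 at P14, and 427, 415 and 315 at P28. P7 is the lowest group and does not overlap any other, while the other 3 overlap one another. The means were 439 ± 175, 242 ± 26.6, 332 ± 44.6 and 386 ± 61.4. The difference from P1 to P7 was -0.79 ± 0.30 with a limma adjusted p of 0.136, and DESeq2 on the recovered reads gave 0.0411. From P7 to P28 it was 0.67 (adjusted p = 0.0879).

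The 8 genes belong to a wider engulfment programme, for which 89 other genes were listed by role, and 81 of them were abundant enough to be tested. Rubcn had no row, and Stab2, Timd4, Havcr1, Apoh, Tulp1, Arhgef16 and Cd22 were below the filter. From P1 to P7, 4 of the 81 rose and 9 fell, from P7 to P14 17 rose and 3 fell, from P14 to P28 15 rose and 7 fell, and over the whole span 29 rose and 16 fell. These are 16.0%, 24.7%, 27.2% and 55.6% of the list, beside 7.70%, 20.9%, 14.4% and 34.6% of all genes. The median log2 fold change of the list was 0.03, 0.15, 0.05 and 0.34, where that of all genes was 0.04, -0.09, -0.12 and -0.24. Without P7 replicate 3 the second step counted 13 calls, and the third counted 12 without P14 replicate 1 and 12 without P14 replicate 3.

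Among 21 other uptake receptors tested, 6 fell from P1 to P7, 4 rose from P7 to P14 and 5 rose from P14 to P28. That is 28.6%, 19.0% and 23.8% of them, beside 7.70%, 20.9% and 14.4% of all genes. Lrp1, a large receptor for lipoproteins and opsonins, averaged 6273, 2784, 7144 and 9858 over the 4 time points. It fell by 1.12 on the log2 scale from P1 to P7 (limma adjusted p = 0.00576) and rose by 1.37 from P7 to P14 (0.000511). Itgav, the αv partner of the Mfge8 receptor, averaged 2848, 1632, 3211 and 4638, with a fall of 0.79 (0.00423) and a rise of 0.97 (0.000300) in the same steps. Itgb5, the β5 partner, was picked out after its values were seen, and fell by 2.24 from P1 to P7 (0.000244), from 946 ± 176 to 197 ± 14.5. Adgrb3, an adhesion receptor, was the other abundant member, and its rise of 0.55 from P14 to P28 (0.0453) was past the threshold in 6 of 22 alternatives.

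Of 14 other opsonins tested, 2 fell from P1 to P7, 5 rose and 1 fell from P7 to P14, and 2 rose from P14 to P28. The shares called were 14.3%, 42.9% and 14.3%, beside 7.70%, 20.9% and 14.4% of all genes. Apoe, the main lipid carrier secreted by astrocytes, averaged 11903, 4574, 17427 and 31926, falling by 1.37 from P1 to P7 (limma adjusted p = 0.00339) and rising by 1.97 from P7 to P14 (5.85e-05). Clu, a secreted chaperone that binds debris, averaged 2502, 964, 4343 and 11887. It fell by 1.27 (0.00984), then rose by 2.16 (6.25e-05) and by 1.47 (0.00378). Anxa5, which binds phosphatidylserine, rose by 1.22 from P7 to P14, in 17 of 22 alternatives.

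In the cytoplasmic machinery, with 25 genes tested, 1 rose and 1 fell in the first step, 4 rose in the second, and 5 rose and 3 fell in the last. Called shares were thus 8%, 16% and 32%, beside 7.70%, 20.9% and 14.4% of all genes. The first was near and the second below the share of all genes. Elmo2, part of the ELMO and DOCK complex that activates Rac, averaged 689, 917, 4201 and 8561, rising by 2.20 from P7 to P14 (limma adjusted p = 5.56e-06) and by 1.02 from P14 to P28 (0.00641). Rab7, the small GTPase of late phagosomes, averaged 9296, 7470.3, 12739 and 21126, with rises of 0.77 (0.00193) and 0.73 (0.00651). Rac1, which drives the actin cup, averaged 7092, 6333, 8853 and 10973, and its rise of 0.49 from P7 to P14 was past the threshold in 13 of 22 alternatives.

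A group of 5 genes acts on the ligands and receptors themselves, and of these 1 rose from P1 to P7 and 1 from P14 to P28. Each is 20% of the group, beside 7.70% and 14.4% of all genes. Adam10, a protease that sheds receptors, had means of 928, 1459, 1293 and 1334, and its first rise, of 0.65, was past the threshold in 17 of 22 alternatives. Adam17, the protease that sheds Mertk, averaged 921, 722, 1104 and 1519. Vkorc1l1, which recycles the vitamin K needed for the carboxylation of Gas6 and protein S, averaged 896, 734, 674 and 739.7.

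Of 11 genes that expose or hide phosphatidylserine, 2 rose in the first step, 1 rose and 1 fell in the second, and 1 rose and 2 fell in the last. As shares these are 18.2%, 18.2% and 27.3%, beside 7.70%, 20.9% and 14.4% of all genes. Atp8a1, a flippase that returns the lipid to the inner leaflet, averaged 1668, 1289, 4213 and 3231 and rose by 1.71 from P7 to P14 (limma adjusted p = 1.16e-06). Atp11a, a further flippase, averaged 1418, 1470.5, 1959 and 2172. Ano6, a scramblase, averaged 1216, 1007, 997 and 1784, and its rise of 0.87 from P14 to P28 was past the threshold in 17 of 22 alternatives.

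Among 5 genes that restrain engulfment, 3 rose and 1 fell from P7 to P14, and 1 rose and 2 fell from P14 to P28. So 80% and 60% were called in these steps, beside 20.9% and 14.4% of all genes. Sirpa, the receptor of the "do not eat me" signal, averaged 1315, 1237, 7036 and 12763. It rose by 2.50 from P7 to P14 (limma adjusted p = 7.83e-07) and by 0.86 from P14 to P28 (0.00761). Cd47, the ligand of Sirpa, averaged 719, 1033, 2078 and 1912 and rose by 0.97 from P7 to P14. Cd24a, a surface protein abundant in young neurons, went the other way, with means of 2079, 4105, 551 and 269.8 and a log2 fold change of -2.91 from P7 to P14 (2.53e-05).

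**Figure D4:**
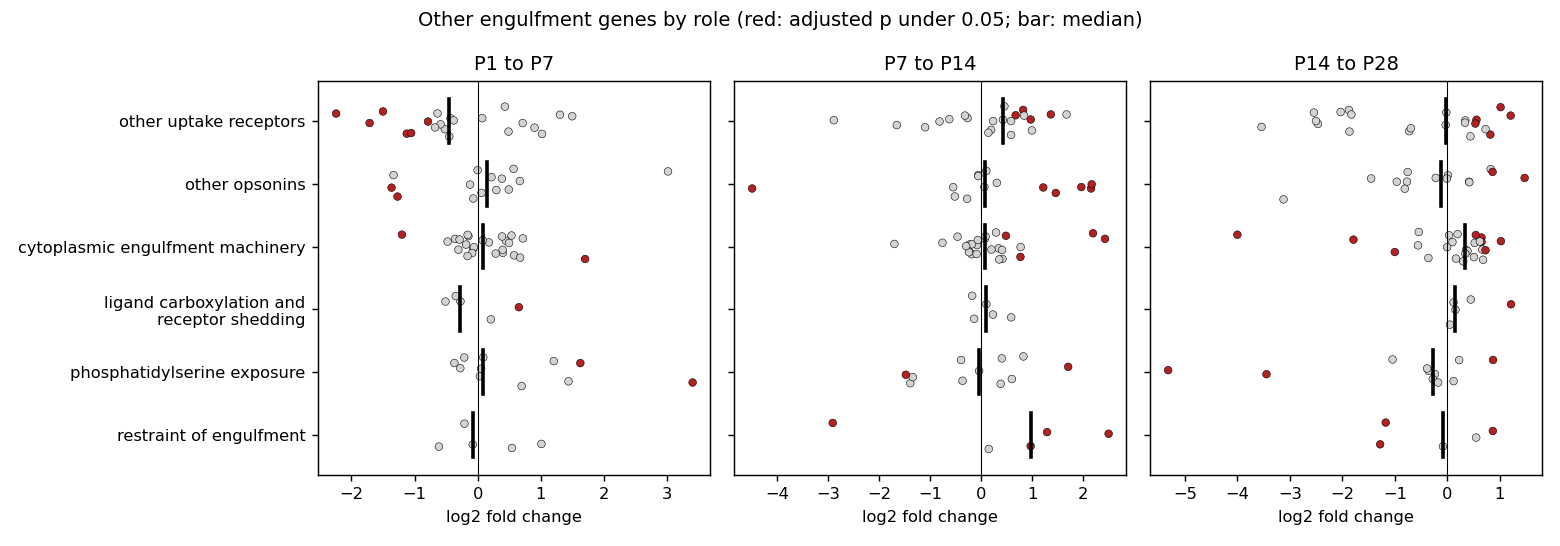
Log2 fold change (x axis) of each of the 81 other engulfment genes tested, in rows by role, for the 3 steps between time points, with red points at a limma adjusted p under 0.05, grey points otherwise and a black bar at the median of the role. Among uptake receptors 6 red points lie below 0 from P1 to P7, and among opsonins 5 lie above 0 from P7 to P14.

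The genes whose profile over the 12 libraries was most like that of each member were sought among 10204 genes with a mean count of at least 100, by Pearson's r of log2(value + 1). This is a description of libraries that share their time points, and it carries no test. For Axl these were Itm2c (r = 0.984), with means of 1035, 403, 1131 and 2997, and Gstm1 (0.974). Mertk ran closest to Chst2 (0.973) and to Ntrk2 (0.955), a neurotrophin receptor that averaged 13690.2, 4975, 15533 and 26879. Mfge8 was closest to Fads2 (0.974), a fatty acid desaturase, and Ptprz1 (0.961), a receptor phosphatase of glial progenitors. Tyro3 had Arhgef3 (0.917), with means of 710.3, 240.1, 581 and 234, and Lss (0.914), an enzyme of sterol synthesis, with means of 1428, 929, 1527 and 953. Megf10 was matched by Fmn2 (0.929) and Prpsap1 (0.928), Gas6 by Rasl11a (0.935) and Slitrk4 (0.933), Pros1 by Sdcbp (0.890) and Rhoj (0.871), and Gulp1 by Zfp97 (0.861) and Ccng1 (0.848).

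The steps in which these genes moved were also steps in which marker lists moved. Of the 10 astrocyte markers, 6 fell and 2 rose from P1 to P7, 8 rose from P7 to P14 and 8 rose from P14 to P28. All 8 oligodendrocyte markers rose from P1 to P7 and from P7 to P14, and 7 fell from P14 to P28. Oligodendrocyte precursor markers had 2 of 6 lower, then 3 higher and 1 lower, then 4 lower. Pan-neuronal markers had 4 of 6 higher, then 3 higher and 1 lower, then 4 lower, and granule neuron markers 4 of 7 higher, then 2 higher and 1 lower, then 2 lower. Purkinje cell markers had 1 of 6 higher and 1 lower from P1 to P7 and 2 higher from P7 to P14. Choroid plexus markers had 3 of 6 higher from P1 to P7.

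Markers of immune and vascular cells had lower sums than the astrocyte list at every time point. Other lists did not: oligodendrocyte markers averaged 370459 at P14, against 165330 for astrocyte markers. Choroid plexus markers averaged 79142 at P7, against 42225. The 10 microglia and macrophage markers, a lineage rich in Mertk, Axl and Gas6, summed to 937 to 2402, 1873 to 2554, 2455 to 3899 and 1774 to 2037 over the 4 time points, with 1 higher in the first step and 1 higher and 1 lower in the second. Endothelial markers summed to 831 to 3797, 1831 to 11087, 6038 to 7073 and 3757 to 5615, with 1 of 8 higher in each of the first 2 steps and 1 lower in the last. Mural and fibroblast markers summed to 6283 to 25468, 7882 to 20410.2, 10073 to 12765 and 5218 to 6206, with 1 of 9 higher, then 2 higher, then 2 lower. The 5 red blood cell markers summed to at most 118 in a library, and at each time point 4 of them had no read. Beside these small counts stand the 7.70%, 20.9% and 14.4% of all genes called in the same steps, so they are not read as changes of these cells. How much of each member's level came from such cells was not tested.

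**Figure D5:**
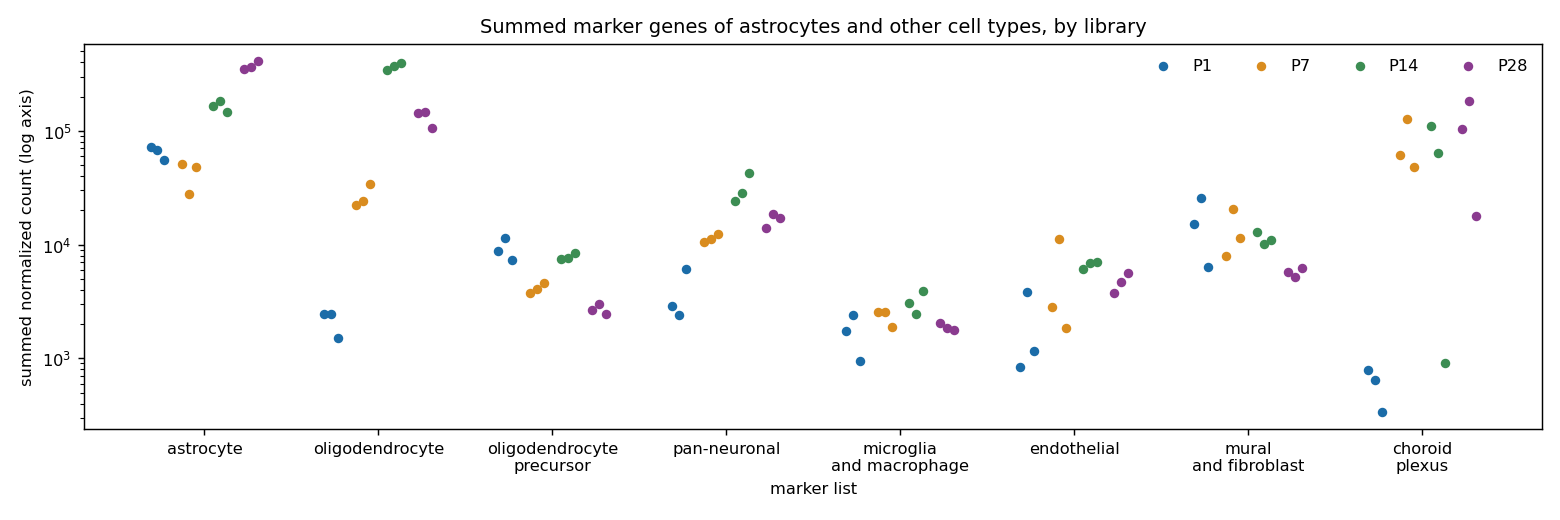
Summed normalised count of 8 marker lists in each of the 12 libraries, by time point, on a log10 axis. The astrocyte sums are lowest at P7 and highest at P28, the oligodendrocyte sums are highest at P14, and choroid plexus sums differ widely between libraries of P14 and of P28.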

How the data were processed

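RNA of GFP-sorted cerebellar cells was sequenced in 12 libraries, 3 per time point. The authors aligned reads to mm10 with STAR (labels: version 2.5.0a), counted them per gene with GenomicAlignments on UCSC transcripts and normalised with DESeq2, for which the labels (1.30.1) and the paper's methods name different versions. Strand and the treatment of shared reads are not given in the sources used here. The deposited values are a signal, counts divided by a size factor per library. Dividing by the smallest step returned whole reads for 100% of values (tolerance 0.01 read), and gave the depth of 6399499 to 14733985 reads. All 12 column names carry P28, so time points rest on the labels, and 0 columns were left over. Replicate pairs differed by more than sampling noise.

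limma (3.58.1, R 4.3.3) was fitted on log2(value + 1), with 4 group means and a variance trend, over the 15464 genes that reached 10 in 3 or more libraries. Fold changes are on that scale and understate low genes. Genes were called at a Benjamini-Hochberg adjusted p under 0.05 over all genes tested. Intervals are 95%. GENCODE M21 (GRCm38, which is mm10) gave coordinates and exon lengths. Promoters came from RefSeq, which held 7 printable windows of the 8. The 22 alternative fits were edgeR (4.0.16) with TMM, DESeq2 (1.42.0), 2 scalings, 2 pseudocounts, 2 filters, only the compared time points, the replicate block and leaving out each library. A p under 0.05 before adjustment with a log2 change over 0.75 was a further call rule. All 3 tools were run on simulated counts with known large changes, a loose check that does not measure the error rate of the calls made here. Members and lists were chosen with earlier results of these data known. Named beside the members are the 3 most abundant genes of each pathway role, the 2 genes most like each member, and whole marker lists.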

Additional observations from a re-analysis of the deposited data

How the results depend on the processing

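Axl (P1 to P7, P7 to P14, P1 to P28), Mfge8 (P1 to P7), Mertk and Tyro3 (P7 to P14) passed under all 22 alternative fits. Log2 fold changes of the 8 genes, and of named pathway genes where they were called, were compared across these fits and the looser call rule. Of the resulting values, 1584 kept direction and side of the threshold, 134 lost the call, 10 gained it and 20 changed sign. Many log2 fold changes could not move, as under another filter or without a library of a time point not compared. The counts are therefore not of separate checks. The cause was not tested where none is given. Calls among the 8 genes from P1 to P7 numbered 5 with DESeq2 and 5 at an unadjusted p under 0.05 with a log2 change over 0.75, and leaving out a library gave 2 to 4. With only the compared time points, which leaves 6 libraries, they were 2 from P14 to P28 and 2 from P1 to P28. Scaling by read totals gave 2 from P1 to P28. Leaving out a library gave 2 to 4 from P14 to P28 and 2 to 5 from P1 to P28. All-gene calls from P1 to P7 were 1857 with DESeq2, 2820 with only the compared time points and 2198 at the unadjusted rule (645 to 1534 without a library), and from P14 to P28 766 with only the compared time points and 3725 at the unadjusted rule (1233 to 2807). Pathway calls with only the compared time points were 20 from P1 to P7, 8 from P14 to P28 and 22 from P1 to P28, and leaving out a library gave 13 to 26 from P7 to P14 and 12 to 28 from P14 to P28. Scaling by read totals turned the split of all-gene calls from 1676 higher and 1551 lower to 1204 and 2477 from P7 to P14, from 878 and 1354 to 454 and 1941 from P14 to P28, and from 2264 and 3086 to 1368 and 5185 from P1 to P28.

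The signs that turned belong to differences that had not passed the test. With scaling by read totals the log2 fold change was -0.25 for Megf10 from P7 to P14, -0.14 for Pros1 from P7 to P14, -0.026 for Gulp1 from P14 to P28 and -0.081 for Pros1 from P1 to P28, and with DESeq2 it was -0.022 for Megf10 from P7 to P14. Leaving out a library spanned -0.13 to 0.30 for Megf10 and -0.29 to 0.069 for Gas6 from P1 to P7, -0.24 to 0.17 for Megf10 and -0.10 to 0.32 for Pros1 from P7 to P14, -0.37 to 0.20 for Gas6 from P14 to P28, and -0.60 to 0.017 for Mfge8 and -0.40 to 0.17 for Gulp1 from P1 to P28. Between P1 and P28 alone, where 3 against 3 libraries cannot pass, the log2 ratio of Mertk to Axl differed by -0.13 and that of Gas6 to Pros1 by 0.54 (exact permutation, adjusted p = 0.3). Leaving out a library gave -0.072 to 0.30 for Mertk to Axl, 0.95 to 1.39 for Mertk to Tyro3 and 0.59 to 0.89 for Gas6 to Pros1.

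With the replicate block, 3, 4, 4 and 5 of the 8 genes were called from P1 to P7, P7 to P14, P14 to P28 and P1 to P28, and no call of theirs changed. Same-numbered libraries showed little shared deviation (18 pairs, r from -0.03 to 0.14, 1 above 0.1). The pair above 0.1 was replicate 2 of P1 and P7. Whether libraries of the same number shared a litter, sort day or batch cannot be told from these values. A member's value rested on at least 106 reads, and the part of counting error in the spread between libraries was not tested.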

Other observations

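Among the 8 genes themselves, Pearson's r of log2(value + 1) over the 12 libraries was highest for Mertk and Axl (0.843) and for Axl and Mfge8 (0.796), followed by Mertk and Gulp1 (0.725) and Mertk and Gas6 (0.705). Megf10 and Tyro3 had the lowest value (-0.41), and Axl and Tyro3 stood at 0.105. Of the ligands, Gas6 ran with Mertk more than with Mfge8 (0.115). These values describe libraries that share time points and normalisation, and no test was made of them.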
